A study of Mus musculus with 8 samples.

Results

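The enzymes of folate one-carbon metabolism were examined in RNA that came down with crude mitochondria of mouse heart. The 8 genes were listed by name and matched by gene symbol. All 8 were found among the 49584 features of the count files, and all 8 had enough counts to be tested, among 17891 tested features. Of them, 5 encode mitochondrial enzymes (Mthfd2, Mthfd2l, Mthfd1l, Shmt2 and Aldh1l2) and 3 encode cytosolic ones (Mthfd1, Shmt1 and Aldh1l1). Their identifiers in the count files are ENSMUSG00000005667.8 for Mthfd2, ENSMUSG00000029376.8 for Mthfd2l, ENSMUSG00000040675.17 for Mthfd1l, ENSMUSG00000025403.4 for Shmt2, ENSMUSG00000020256.14 for Aldh1l2, ENSMUSG00000021048.6 for Mthfd1, ENSMUSG00000020534.14 for Shmt1 and ENSMUSG00000030088.15 for Aldh1l1. The series compares 4 knockout mice (L/L, cre; genotype field Tefm -/-), in which an exon of Tefm flanked by loxP sites was removed by cre under the muscle creatine kinase promoter, with 4 control mice (L/L; genotype field Tefm +/+). This promoter acts in heart and skeletal muscle cells, so other cells of the heart should keep the gene. TEFM keeps the mitochondrial RNA polymerase elongating along mitochondrial DNA (mtDNA). The sources used here give no age, sex or strain, and each library was read as 1 animal.

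Folate carries single carbon units between serine, glycine, formate, purines, thymidylate and methionine. In mitochondria SHMT2 takes a carbon from serine onto tetrahydrofolate, MTHFD2 or MTHFD2L oxidises it, and MTHFD1L releases it as formate, which leaves for the cytosol. ALDH1L2 instead burns the formyl group to carbon dioxide with the formation of NADPH. In the cytosol MTHFD1 carries out the same interconversions in a single protein, SHMT1 links serine and glycine, and ALDH1L1 oxidises formyl-tetrahydrofolate. MTHFD2 is high in embryonic, proliferating and stressed cells and low in most adult tissues, and the mitochondrial arm is known as a target of the transcription factor ATF4.

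Totals were 21108165 to 25393933 counts in knockout libraries and 26268804 to 27403415 in controls. RNA from mtDNA took 38.7% to 59.3% of the counts in knockouts, with replicate 1 at 59.3% and the others at or below 44.2%, and 72.3% to 74.0% in controls. Levels are therefore given as CPM, counts scaled to a common library size that the bulk of genes sets (TMM). With library totals as the only scale the median log2 fold change over all genes moved by 0.99, and 96.7% of the calls were higher in knockouts, against 52.2% on the common scale. Tefm itself, counted over the whole gene, had 6.85 ± 0.595 CPM in knockouts and 6.23 ± 0.639 CPM in controls (SD, n = 4 each). Its log2 fold change was 0.14 (SE 0.11, edgeR adjusted p = 0.323), and 1.13 with library totals as the only scale (edgeR adjusted p = 1.01e-05). This count does not show the loss of 1 exon, and the groups are named as labelled. Defining cardiomyocyte markers were abundant in every library, and lymphocyte and adipocyte markers were nearly absent, with 81 and 29 counts over all 8 libraries. More or fewer cells of a type, more or less RNA per cell, and a change in what came down with the mitochondria cannot be told apart in these data.

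The mRNAs of 4 of the 5 mitochondrial enzymes rose in knockout libraries, and that of Mthfd2l fell. Of the cytosolic enzymes, Shmt1 and Mthfd1 rose by smaller amounts and Aldh1l1 fell. The log2 fold change of Mthfd2l turned to 0.21 with library totals as the only scale, and there neither it nor Aldh1l1 passed the threshold. In all, 8 of 8 genes passed edgeR's quasi-likelihood test at a Benjamini-Hochberg FDR of 0.05, a call that 50.0% of all tested genes received (26.1% higher and 23.9% lower in knockouts). A call by itself was therefore common in these data, so the sizes of the changes are given for each gene. A rise of at least 2-fold was called in 7.33% of tested genes, and 5 of these 8 genes had one. The median log2 fold change was 2.06 over the 5 mitochondrial genes and 0.45 over the 3 cytosolic ones, against -0.01 over all tested genes. The CPM of the groups did not overlap for any of the 8 genes, as for 45.4% of all tested genes.

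**Figure D1:**
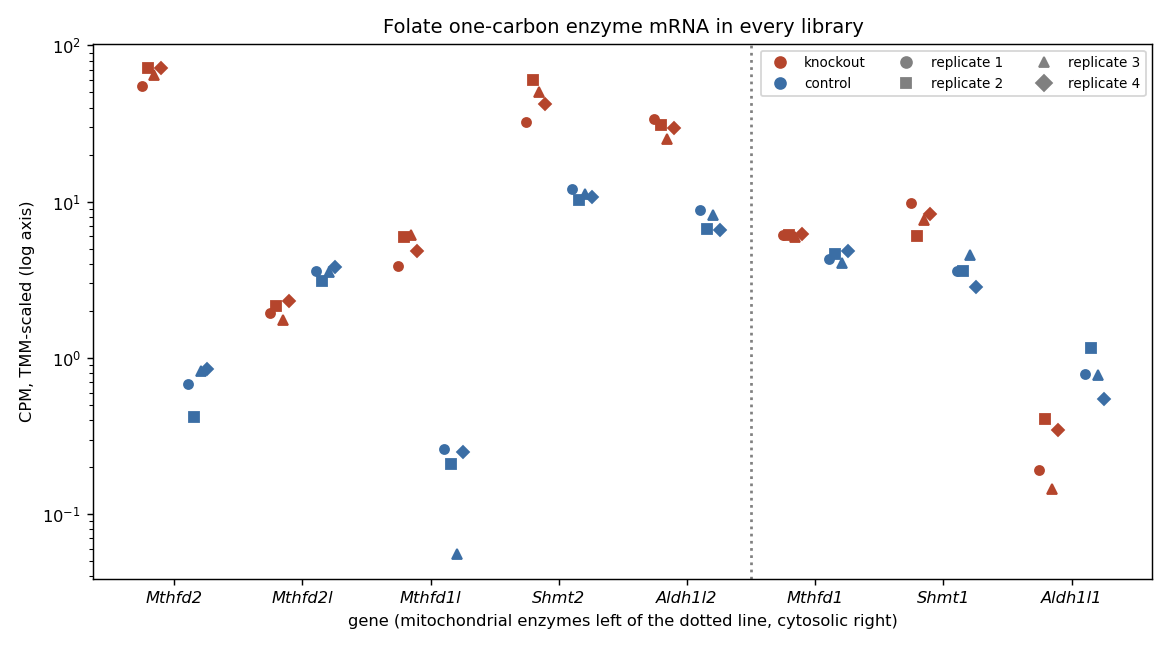
CPM of the 8 enzyme mRNAs in each of the 4 knockout and 4 control libraries, on a log axis, with 1 symbol per replicate number. Mthfd2 lay between 54.8 and 71.4 CPM in knockouts and between 0.419 and 0.846 CPM in controls, and for none of the genes did the groups overlap.

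Mthfd2 lies on the minus strand of chromosome 6 (83305691 to 83325908, GRCm38) and Mthfd2l on the plus strand of chromosome 5 (90931117 to 91021368). Both encode mitochondrial enzymes with dehydrogenase and cyclohydrolase activity. On the common scale they moved in opposite directions, as did Aldh1l2 (log2 fold change 1.98) and Aldh1l1 (-1.55). The coding sequences of such copies were compared, 1 for each gene. Untranslated parts of exons and other loci were left out, so whether reads could pass between copies was not tested. The coding sequences of Mthfd2 and Mthfd2l were 69.5% identical over 995 aligned bases, and the longest run of bases shared exactly was the following.
Mthfd2 (coding base 940) and Mthfd2l (coding base 955): cccatgaccgtggccatgct
This run holds 20 bases. The longest shared run was 19 bases between Shmt2 and Shmt1 (65.6% identical), 20 between Mthfd1l and Mthfd1 (65.2%) and 22 between Aldh1l2 and Aldh1l1 (72.0%). The bases upstream of the RefSeq transcript starts are shown for Mthfd2 and Mthfd2l, the mitochondrial paralogs that moved apart on the common scale. Those of Mthfd1l, the other gene with a rise of more than 20-fold, are shown as well. Capitals mark CCAAT and TGACGT on either strand (ATTGG and ACGTCA are their reverse complements), and bases within exons annotated in GENCODE were left out.
Mthfd2, chr6:83317607-83317854, minus strand: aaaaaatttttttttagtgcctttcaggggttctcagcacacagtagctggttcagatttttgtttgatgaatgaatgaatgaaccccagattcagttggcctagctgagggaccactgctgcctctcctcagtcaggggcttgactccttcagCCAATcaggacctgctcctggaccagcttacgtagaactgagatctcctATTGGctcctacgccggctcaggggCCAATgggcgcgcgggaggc
Mthfd2l, chr5:90930946-90931116, plus strand: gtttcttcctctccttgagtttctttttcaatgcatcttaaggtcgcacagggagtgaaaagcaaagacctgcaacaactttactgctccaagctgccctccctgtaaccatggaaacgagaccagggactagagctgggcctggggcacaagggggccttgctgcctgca
Mthfd1l, chr10:3972825-3973074, plus strand: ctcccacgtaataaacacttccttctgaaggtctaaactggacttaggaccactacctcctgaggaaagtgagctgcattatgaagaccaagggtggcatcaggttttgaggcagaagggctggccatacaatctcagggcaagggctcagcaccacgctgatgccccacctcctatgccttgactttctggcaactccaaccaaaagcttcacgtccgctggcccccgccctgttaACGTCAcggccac
The C/EBP-ATF response element core TGATGNAA, which ATF4 binds with a partner, was in none of the 7 member windows available (250 bases before to 50 after the start, GRCm38.p6), and in 3.97% of all 32851 windows. The E-box CACGTG was in none of the 7 either, against 7.15% of all windows. These letters not being in a window says nothing about sites elsewhere. The windows of Mthfd2, Aldh1l1 and Shmt1 lie inside these genes as annotated in GENCODE. For Mthfd2 the annotated gene reaches to base 83325908, upstream of the window shown. Sequence before the outermost annotated start of these genes was therefore not searched. CCAAT and TGACGT were added after these windows had been seen. The Mthfd2 window held 3 CCAAT matches, which began 96, 47 and 22 bases before the start. At least 3 matches were in 3.37% of all windows, and at least 1 in 37.4%. Mthfd1l held 1 match to TGACGT, as did 7.51% of windows at least once, and no CCAAT, and Mthfd2l held neither. Of the other windows, that of Aldh1l1, which fell, held 2 CCAAT matches, those of Mthfd1 and Shmt1 held 1 each, and that of Shmt2, which rose, held none.

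Mthfd2 was close to absent from the control libraries and one of the most raised mRNAs in knockout libraries. Knockout libraries 1 to 4 held 1435, 2469, 2237 and 2261 counts of Mthfd2, and control libraries 1 to 4 held 13, 8, 15 and 17. On the common scale these were 54.8, 71.4, 64.5 and 71.2 CPM in knockouts and 0.684, 0.419, 0.829 and 0.846 CPM in controls. Every knockout library was far above every control, with replicate 1 the lowest of the knockouts. The fold change was 93.6 (95% interval 74.1 to 118; log2 6.55, SE 0.16; edgeR adjusted p = 3.53e-12), and it ranked 24 from the top among 17891 genes.

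Mthfd2l, the paralog that is thought to serve adult tissues, went the other way on this scale. It stood at 1.95, 2.14, 1.76 and 2.30 CPM in knockout libraries 1 to 4 and at 3.58, 3.09, 3.54 and 3.83 CPM in controls. Its log2 fold change was -0.78 (SE 0.15; edgeR adjusted p = 0.000566), a level 1.72-fold lower in knockouts. As raw counts, 259 in knockouts and 268 in controls, the gene was nearly even, and with library totals as the only scale its log2 fold change was 0.21 (adjusted p = 0.407). Relative to the all-gene median it stood at -0.77 there.

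Mthfd1l, which makes formate in the last mitochondrial step, was almost undetected in controls. Knockout libraries 1 to 4 held 101, 206, 213 and 154 counts of it, and controls 5, 4, 1 and 5. In CPM these were 3.86, 5.96, 6.14 and 4.85 in knockouts and 0.263, 0.209, 0.0553 and 0.249 in controls. The fold change was 26.0 (95% interval 16.8 to 40.1; log2 4.70, SE 0.29; edgeR adjusted p = 1.82e-08), and its precision is limited by the 15 control counts. The gene lies on chromosome 10 (3973118 to 4167081, plus strand).

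Shmt2, the entry of serine carbon into the mitochondrial arm, had 32.2, 59.8, 50.1 and 42.5 CPM in knockout libraries 1 to 4 and 12.0, 10.3, 11.2 and 10.7 CPM in controls. Knockout replicate 1 was the lowest of the knockouts and still above every control. The rise was 4.18-fold (95% interval 3.32 to 5.27; log2 2.06, SE 0.16; edgeR adjusted p = 1.18e-07). Aldh1l2 had 33.6, 31.2, 25.3 and 29.5 CPM in knockouts and 8.90, 6.70, 8.18 and 6.57 CPM in controls, a rise of 3.94-fold (95% interval 3.32 to 4.68; log2 1.98, SE 0.12; edgeR adjusted p = 9.43e-09). For Aldh1l2 knockout replicate 1 was the highest of the knockouts. Shmt2 (127517123 to 127522444) and Aldh1l2 (83487450 to 83534140) both lie on the minus strand of chromosome 10. The exons of Aldh1l2 share 1056 bases (14.1% of their length) with D10Wsu102e on the other strand, whose log2 fold change was 0.32, and those of Shmt2 share 32 bases with Ndufa4l2, at -0.11. The sources used here do not say if the libraries keep strand, so reads in these stretches cannot be assigned.

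Among the cytosolic enzymes Shmt1 (chromosome 11, 60788104 to 60811718, minus strand) had 9.81, 6.01, 7.58 and 8.31 CPM in knockout libraries 1 to 4 and 3.58, 3.61, 4.53 and 2.84 CPM in controls. Replicate 1 was here the highest of the knockouts, and the groups did not overlap. The rise was 2.17-fold (95% interval 1.70 to 2.79; log2 1.12, SE 0.17; edgeR adjusted p = 7.7e-05). Its exons share 184 bases with Smcr8 on the other strand, whose log2 fold change was 0.14. Mthfd1 (chromosome 12, 76255298 to 76319803, plus strand) varied least, with 6.15, 6.10, 5.97 and 6.20 CPM in knockout libraries 1 to 4 and 4.32, 4.66, 4.03 and 4.83 CPM in controls. Its rise was 1.37-fold (95% interval 1.17 to 1.60; log2 0.45, SE 0.10; edgeR adjusted p = 0.00261). Aldh1l1 (chromosome 6, 90486427 to 90600203, plus strand) was the rarest in knockouts, with 5, 14, 5 and 11 counts in knockout libraries 1 to 4 and 15, 22, 14 and 11 in controls. In CPM it had 0.191, 0.405, 0.144 and 0.346 in knockouts and 0.790, 1.15, 0.774 and 0.548 in controls, so the groups overlapped in raw counts and not in CPM. The log2 fold change was -1.55 (SE 0.36; edgeR adjusted p = 0.00255) on the common scale, with a 95% interval from -2.33 to -0.78, and with library totals alone it was -0.57 (adjusted p = 0.183). Its exons overlap those of the antisense gene Gm15756 over 499 bases, which held 3 counts in knockouts and 6 in controls.

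**Figure D2:**
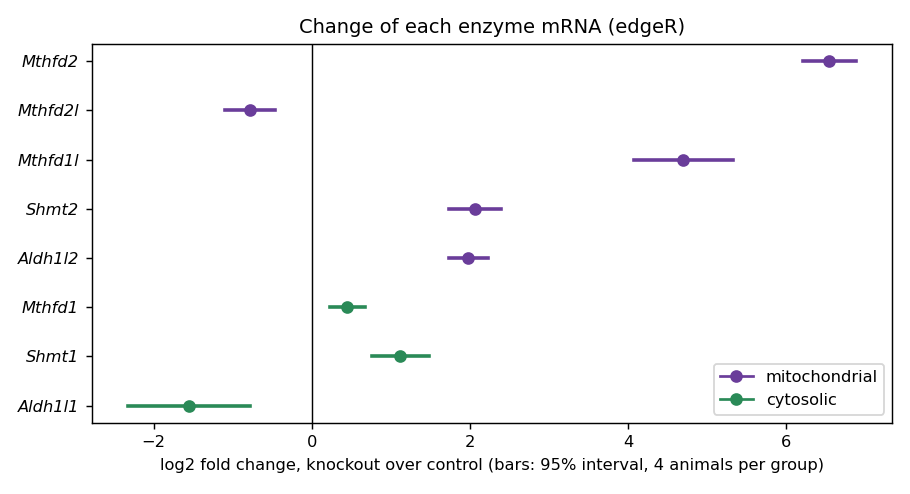
Log2 fold change of each enzyme mRNA, knockout over control, with its 95% interval from edgeR on 4 animals per group. Mthfd2 (6.55) and Mthfd1l (4.70) stand apart from Shmt2 and Aldh1l2 near 2, and Mthfd2l (-0.78) and Aldh1l1 (-1.55) lie below 0 on this scale, where Mthfd2l turned to 0.21 with library totals as the only scale.

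The authors' deposited table gives the same directions for all 8 genes, with log2 fold changes of 6.35 for Mthfd2, 4.25 for Mthfd1l, 2.04 for Shmt2, 1.97 for Aldh1l2 and -0.75 for Mthfd2l. In the authors' deposited table Shmt1 stands at 1.11, Mthfd1 at 0.46 and Aldh1l1 at -1.35.

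Whether the mitochondrial and the cytosolic copy of an enzyme moved together was asked with the ratio of their counts within each library, which no scaling moves. There were 4 pairs, including the mitochondrial pair Mthfd2 and Mthfd2l, and p-values were adjusted over these. The count ratio of Mthfd1l to Mthfd1 was 0.627, 0.976, 1.03 and 0.782 in knockout libraries 1 to 4 and 0.0610, 0.0449, 0.0137 and 0.0515 in controls. The mitochondrial gene thus reached about the count of the cytosolic one in knockouts, with all knockouts above all controls (log2 difference 4.24, SE 0.42; p = 0.0286, adjusted p = 0.0381 by a two-sided exact permutation test). The ratio of Aldh1l2 to Aldh1l1 was 77.0 to 176 in knockouts and 5.82 to 12.0 in controls (log2 difference 3.59, SE 0.38; exact permutation test, p = 0.0286, adjusted p = 0.0381). Of the pair Mthfd2 and Mthfd2l, the first had 28.1 to 36.7 times the counts of the second in knockouts and 0.136 to 0.234 times in controls (log2 difference 7.33, SE 0.19; exact permutation test, p = 0.0286, adjusted p = 0.0381). Here the order of the pair turned round between the groups in all 8 libraries. The value 0.0286 is the smallest p that 70 relabelings allow. For Mthfd2 and Mthfd2l, and for Aldh1l2 and Aldh1l1, the CPM of the groups already lay apart in opposite directions. Every knockout ratio of these pairs thus had to lie above every control ratio. Their p-values were fixed by that and add no support, though they count among the 4 adjusted together.

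The ratio of Shmt2 to Shmt1 did not pass this test. It was 3.28, 9.94, 6.60 and 5.11 in knockout libraries 1 to 4 and 3.35, 2.84, 2.48 and 3.77 in controls (log2 difference 0.91, SE 0.36; exact permutation test, p = 0.0857, adjusted p = 0.0857). Knockout replicate 1, the lowest knockout for Shmt2 and the highest for Shmt1, lay among the controls. Without it the log2 difference was 1.18 and the other 3 knockouts lay above every control, with p = 0.0571, the smallest that an exact permutation test of 3 against 4 allows. The same library had the highest share of mtDNA among the knockouts. The part of that share in these values was not tested.

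**Figure D3:**
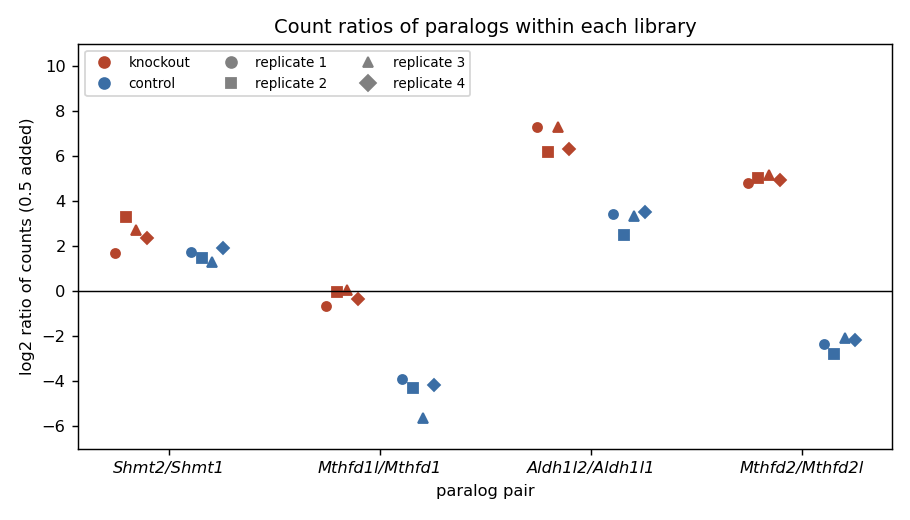
Log2 ratio of counts (0.5 added to each) of 4 paralog pairs in each knockout and control library. Mthfd2/Mthfd2l differed in sign between the groups, with 4.80 to 5.19 in knockouts against -2.81 to -2.06 in controls, and Shmt2/Shmt1 of knockout replicate 1 (1.71) lay within the control values.

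Per kilobase of exon, a rough scale for comparing genes, the order of the enzymes differed between the groups. The length is the union of all exons annotated for a gene, such as 6645 bases for Mthfd2l and 7503 for Aldh1l2. Which transcripts were present was not tested, so levels, sums and shares between genes depend on this length. In knockouts Mthfd2 (18.8 ± 2.23 CPM per kilobase) and Shmt2 (14.8 ± 3.76) led, and their ranges overlapped (SD, n = 4 each). Aldh1l2 (3.98 ± 0.464), Shmt1 (2.04 ± 0.407), Mthfd1 (1.37 ± 0.0227), Mthfd1l (1.17 ± 0.239), Mthfd2l (0.306 ± 0.0352) and Aldh1l1 (0.0601 ± 0.0274) followed, and among these neighbours the ranges of Mthfd1 and Mthfd1l alone overlapped. In controls Shmt2 led at 3.55 ± 0.241 CPM per kilobase, above Aldh1l2 (1.01 ± 0.152), Mthfd1 (1.004 ± 0.0799) and Shmt1 (0.937 ± 0.179), whose ranges overlapped from each to the next. Mthfd2l stood at 0.528 ± 0.0466 CPM per kilobase in controls, Mthfd2 at 0.199 ± 0.0567 and Aldh1l1 at 0.181 ± 0.0553, the last 2 with overlapping ranges, and Mthfd1l was lowest at 0.0438 ± 0.0215. So Mthfd2 held rank 1 in knockouts and rank 6 in controls.

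Summed per kilobase, the 5 mitochondrial enzymes reached 39.1 ± 5.66 CPM per kilobase in knockouts and 5.33 ± 0.431 in controls, and the 3 cytosolic ones 3.48 ± 0.402 and 2.12 ± 0.146 (SD, n = 4 each). The mitochondrial sum was 8.02, 15.1, 11.9 and 10.9 times the cytosolic sum in knockout libraries 1 to 4, and 2.82, 2.16, 2.44 and 2.68 times in controls. Replicate 1 was the lowest of the knockouts in this ratio and above all controls. Mthfd2 made up 48.2% ± 3.01 of the mitochondrial sum in knockouts and 3.71% ± 0.989 in controls, whereas Shmt2 made up 37.5% ± 4.62 and 66.7% ± 1.18 and Aldh1l2 10.4% ± 2.53 and 18.9% ± 1.55 of it in knockouts and controls (SD, n = 4 each). Mthfd2l made up 0.794% ± 0.126 in knockouts and 9.92% ± 0.820 in controls, and Mthfd1l 2.99% ± 0.349 and 0.826% ± 0.401.

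**Figure D4:**
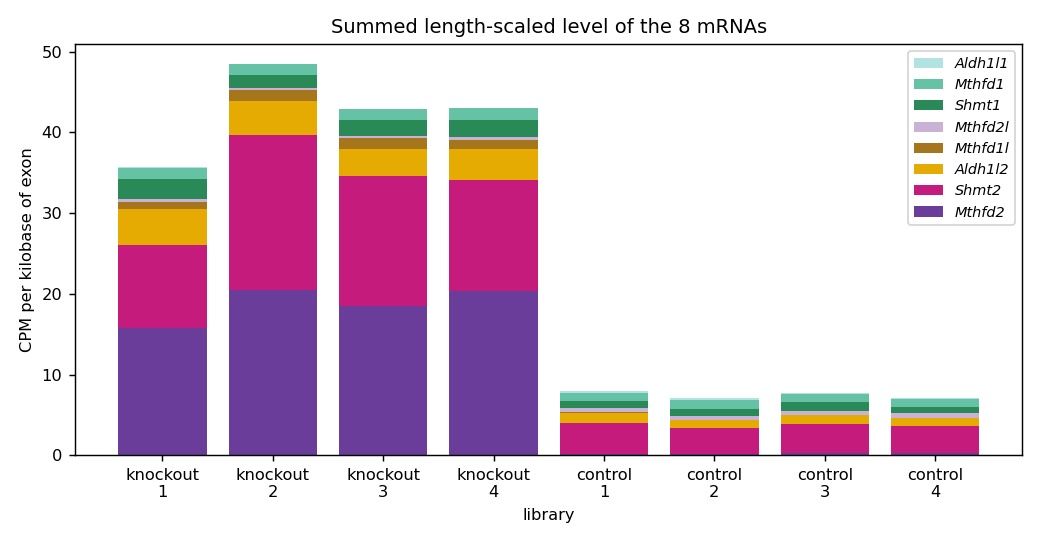
Stacked CPM per kilobase of exon of the 8 mRNAs in each library, knockouts at the left and controls at the right. Mthfd2 and Shmt2 make up most of the knockout bars, and Shmt2 is the largest segment of every control bar.

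Knockout replicate 1 did not differ from the other knockouts in 1 direction for all members. Against the mean of the controls, its log2 difference (log2 CPM with a prior count of 2) was 6.19 for Mthfd2, 3.94 for Mthfd1l and 1.54 for Shmt2, where the other knockouts stood at 6.42 to 6.57, 4.26 to 4.60 and 1.94 to 2.43. For Aldh1l2 (2.15) and Shmt1 (1.43) it was instead above the others, at 1.74 to 2.04 and 0.73 to 1.19. For Mthfd1 (0.46, others 0.42 to 0.47) and Mthfd2l (-0.82, others -0.96 to -0.59) it lay among them. These are values of 1 animal and were not tested.

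The other genes of the pathway did not move as a block. Of 29 listed genes 25 could be tested, and 9 rose, 6 fell and 10 did not pass edgeR's test at FDR 0.05, with a median log2 fold change of 0.19 against -0.01 over all tested genes and calls in 50.0% of them. With library totals as the only scale 19 rose and 0 fell. Of 6 tested genes for folate carriers and folate retention, Fpgs, which adds the glutamate tail that keeps folate in cells and mitochondria (1.004, SE 0.17, adjusted p = 0.000226), and Slc19a1, the reduced folate carrier (0.72, SE 0.22, adjusted p = 0.015; 0.64 and 0.0504 without control replicate 4), rose in edgeR's test. For Slc19a1, knockout replicate 1 (1.57 CPM) lay among the controls (1.29 to 1.89 CPM). Folr2, a folate receptor carried by macrophages, fell (-1.27, SE 0.19, adjusted p = 8.23e-05; -0.27 and 0.336 with library totals), and of 5 macrophage markers 1 fell and 4 did not pass, with a summed level of 56.6 to 81.1 CPM in knockouts and 73.1 to 106 CPM in controls. Most of that sum was Lyz2, the 1 that fell, with means of 33.8 CPM in knockouts and 52.4 CPM in controls. Cd68 stood at a log2 fold change of 0.24 and did not pass. The part of macrophages in the value of Folr2 was not tested. Slc25a32, which takes folate into mitochondria, stood at 0.19 (SE 0.16, edgeR adjusted p = 0.356), with a 95% interval of -0.16 to 0.53. With library totals it passed as higher in knockouts (1.15, adjusted p = 7.4e-06).

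Of the 8 tested cytosolic genes listed for folate use or the support of it, 3 rose and 3 fell, where 26.1% of all tested genes rose and 23.9% fell. Atic (log2 fold change 1.27, SE 0.13, edgeR adjusted p = 2.14e-06) and Gart (0.44, SE 0.09, adjusted p = 0.000948), whose enzymes take formyl groups into the purine ring, rose. Mtr, methionine synthase, fell (-1.13, SE 0.11, adjusted p = 1.16e-06), a call lost with library totals (-0.16, adjusted p = 0.38). Mthfs also fell in this fit (-0.77, SE 0.25, adjusted p = 0.0202), and its call was lost without control replicate 3 (-0.70, adjusted p = 0.0586) and without knockout replicate 3 (-0.66, adjusted p = 0.061), while its sign turned with library totals (0.24). Tyms, thymidylate synthase, did not pass (-0.31, SE 0.20, edgeR adjusted p = 0.207), but passed as higher in knockouts with library totals (0.68, adjusted p = 0.0187). Of 5 proliferation markers 4 could be tested, of which 1 rose and 1 fell, with a summed level of 9.32 to 20.3 CPM in knockouts and 16.9 to 21.2 CPM in controls.

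Besides the members, 6 genes listed for mitochondrial folate use were tested. The list takes in the whole glycine cleavage system, so not every gene on it encodes an enzyme that uses folate. Of the 6, 0 rose, 2 fell and 4 did not pass in edgeR's test, with log2 fold changes of -0.97 to 0.34. Of all tested genes, 26.1% rose and 23.9% fell. Sardh, 1 of the 4, passed as a rise in edgeR's test without knockout replicate 1 (0.40, adjusted p = 0.0401). The 2 that fell belong to the glycine cleavage system: Amt (-0.97, SE 0.17, adjusted p = 0.000278) and Gcsh (-0.34, SE 0.08, adjusted p = 0.00303), which turned to 0.01 and 0.64 with library totals as the only scale. On that scale Gcsh, Dld (1.09), Sardh (1.34), Mtfmt (0.78) and Mthfsl (0.84) passed as higher in knockouts. Gldc, the decarboxylase of that system, had 18 counts in knockouts and 6 in controls, too few to be tested, and Dmgdh had none. Mtfmt, which formylates the initiator tRNA of mitochondria, stood at -0.21 (SE 0.18, adjusted p = 0.344).

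Of 5 genes for the supply of serine, 4 rose and 1 did not pass, where 26.1% of all tested genes rose and 23.9% fell. The list was chosen with earlier results of these data known, so the count is no test of it. Phgdh and Psat1, the first enzymes of serine synthesis, stood at log2 fold changes of 6.45 (SE 0.23, edgeR adjusted p = 1.12e-10) and 5.32 (SE 0.19, adjusted p = 1.16e-10), and Phgdh held 1365 counts over all knockouts and 9 over all controls. Psph, the last enzyme, rose less (1.08, SE 0.16, adjusted p = 6.96e-05), and Sfxn1, which carries serine into mitochondria, rose by 1.10 (SE 0.14, adjusted p = 2.38e-05). Its relative Sfxn3 did not pass (0.42, SE 0.17, adjusted p = 0.0516), but did so without knockout replicate 1 (0.52, adjusted p = 0.00695) or control replicate 3 (0.49, adjusted p = 0.0451), with no filter (0.47, adjusted p = 0.0279), over nuclear genes alone (0.42, adjusted p = 0.049) and with library totals (1.43, adjusted p = 6.24e-06). The transcription factors Atf4 (2.66, SE 0.10, adjusted p = 2.53e-10), Atf5 (2.62, SE 0.11, adjusted p = 5.3e-10) and Ddit3 (2.40, SE 0.16, adjusted p = 4.14e-08) rose as well.

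**Figure D5:**
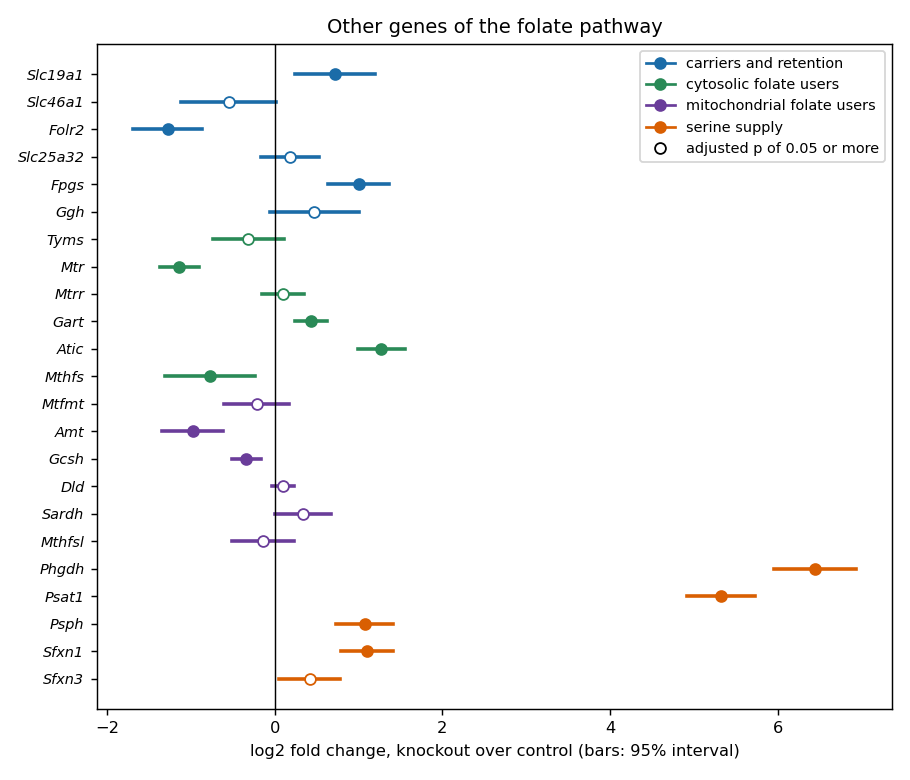
Log2 fold change, knockout over control, of tested pathway genes by role, with 95% intervals and open symbols where the adjusted p was 0.05 or more. Phgdh (6.45) and Psat1 (5.32) stand apart from the rest, which lie between -1.27 and 1.27; Amt, Gcsh and Mthfs turn above 0 with library totals as the only scale, and so do Slc46a1, Tyms, Mtfmt and Mthfsl.

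The genes whose profile over the 8 libraries was most like that of each mitochondrial member were found by the root mean square distance between log2 CPM values (prior count 2), each centred on the gene's control mean. For Mthfd2 they were Tenm4 (0.29), Asns (0.45) and Ostn (0.45), and 0.0307% of genes lay within 0.5 log2 units. For Mthfd1l they were Slc7a5 (0.35), an amino acid transporter, Mei4 (0.43) and Rasgef1a (0.49). Asns, asparagine synthetase, makes asparagine from aspartate. For Shmt2 they were Gsto1 (0.11), Dhx37 (0.12) and Slc2a1 (0.13), and for Aldh1l2 Gyg (0.10), Htatip2 (0.13) and Upp1 (0.15), with 2.07% and 2.23% of genes within 0.5 log2 units. The profiles of Mthfd2l and Mthfd1 were common, with 35.3% and 58.0% of genes that near. Distances of genes almost without control counts are shortened by the prior count. A short distance thus need not mean a like fold change. In edgeR's fit Ostn stood at a log2 fold change of 8.53, against 6.55 for Mthfd2, and Mei4 at 8.46, against 4.70 for Mthfd1l.

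The marker lists were called at rates that have to be read against the 50.0% of all tested genes. Of 5 fibroblast markers 3 rose, with a summed level of 187 to 271 CPM in knockouts and 162 to 179 CPM in controls. Of 5 cardiomyocyte markers 3 fell and 1 rose, with 5978 to 8776 CPM in knockouts and 11481 to 12241 CPM in controls. Myh6 made up most of that sum, with means of 5197 CPM in knockouts and 8743 CPM in controls. Ryr2 (means of 348 and 1180 CPM) and Myl2 fell too, Actn2 rose (log2 fold change 0.26) and Tnnt2 did not pass. The sum therefore does not stand for every marker on the list. Of 4 endothelial markers 2 fell, and the list summed to 254 to 283 CPM in knockouts and 297 to 310 CPM in controls, and of 3 smooth muscle markers 1 fell, with a sum of 35.1 to 47.5 CPM in knockouts and 43.8 to 59.4 CPM in controls. The atrial markers Myl7 and Sln were at or near 0 counts. The part of cell composition in the values of the folate enzymes was not tested.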

How the data were processed

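RNA of crude heart mitochondria from 4 knockout and 4 control mice had been sequenced as paired ends on a MiSeq from TruSeq libraries, per the labels' protocols. The deposited raw counts per gene were used. The submitters' processing notes name featureCounts, DESeq2 1.14.1, R 3.3.2, SAMtools 1.3.1, Bowtie2 and bedtools with the build mm10, but no role for any of them. The authors' deposited table of the comparison holds p-values, log2 fold changes, a score per gene (the test statistic) and the mean signal over libraries. How it was fitted is not stated in the sources used here.

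Counts of all features were tested with edgeR 4.0.16 in R 4.3.3 (quasi-likelihood F test, TMM, filterByExpr with a minimum count of 10, two-sided, no covariate). The p-values of all 17891 features were adjusted together (Benjamini-Hochberg, FDR 0.05). SE was taken as the absolute log2 fold change divided by the square root of F. Count ratios had 0.5 added and were compared by exact permutation. Exon lengths and positions are from GENCODE M21 (GRCm38), where 6 of 8 member IDs match with their version, and promoter windows from RefSeq (GRCm38.p6). Coding sequences were aligned with Biopython 1.88. The members and gene lists were chosen with earlier results of these data known. Genes named beyond the members are the listed pathway genes, Atf4, Atf5, Ddit3, Tefm and the 3 nearest profiles of a member, without predicted genes and pseudogenes. Some listed cell markers and genes whose exons overlap those of a member are named as well. The fit was tested on simulated data. No pair of replicates was a duplicate (chi-square per degree of freedom 2.56 or more). This value was 91.2, 140 and 96.6 for knockout replicate 1 against replicates 2, 3 and 4. It was 8.55 to 15.7 among the other knockouts and 2.56 to 4.00 among controls. Without knockout replicate 1 edgeR called 9625 genes, against 8944 with all libraries. Alternatives were DESeq2 1.42.0, RLE factors, library totals, no filter, nuclear genes alone, the replicate number as a block, and each library left out. Some listed pathway genes are counted but not reported here by name. Figures were drawn with matplotlib 3.10.9.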

Additional observations from a re-analysis of the deposited data

Results flagged for a closer look

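In 24 groups of 4 values (CPM of the 8 genes and the 4 log2 ratios, in each genotype), 1 sample stood far from the others. The log2 ratio of Aldh1l2 to Aldh1l1 was 2.51 in control replicate 2, against 3.36 to 3.53 in the other controls, a gap of 0.832 of the range where Dixon's limit is 0.829. That library held the highest control count of Aldh1l1, 22. Chance flags about 1 in 20 groups. Without it the difference between knockouts and controls in this ratio was 3.36.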

How the results depend on the processing

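Over 14 alternatives for each of the 8 genes (112 values), 110 kept direction and side of the threshold. Both exceptions came with library totals as the only scale: Mthfd2l turned to 0.21 and Aldh1l1 lost its call at -0.57. That scale also moved the calls over all genes to 14545 (8140 to 9625 with any 1 library left out) and the share of higher calls to 96.7%, against 52.2% of 8944 calls. It turned Amt to 0.012, Gcsh to 0.64, Mthfs to 0.24, Slc46a1 to 0.43, Tyms to 0.68, Mtfmt to 0.78 and Mthfsl to 0.84. On that scale the median log2 fold change of all genes was shifted by 0.99. Which scale is nearer to the true levels was not tested. DESeq2 called all 8 genes in the same directions, 8540 genes in all.

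With 1 library left out an exact permutation test cannot go below p = 0.0571, so each passing ratio lost its call: the log2 difference ran from 3.87 to 4.44 for Mthfd1l to Mthfd1, 3.36 to 3.79 for Aldh1l2 to Aldh1l1, 7.18 to 7.43 for Mthfd2 to Mthfd2l and 0.65 to 1.18 for Shmt2 to Shmt1. With the replicate block (sign flips within numbers, smallest p 0.125) the differences were 4.24, 3.59 and 7.33 with p = 0.125 (exact permutation), and 0.91 with p = 0.25. Same-numbered libraries share a number alone: their deviations correlated at 0.00732, -0.0136, 0.0234 and 0.0497, and the block in edgeR left 8833 calls and all 8 members called. Depth limits Aldh1l1 (35 counts in knockouts), Mthfd1l (15 in controls) and Mthfd2 (53 in controls).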
